A study of Homo sapiens with 2 samples.

Results

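The genes described here encode laminins, tenascins, collagens and other proteins of the extracellular matrix. The list holds 39 of the 20046 protein-coding genes of GENCODE release 44. It was set by gene name, with earlier results of these data known. To locate TCF7L1 at these genes, ChIP-seq, in which antibody-bound chromatin is sequenced, was done against FLAG in HCT116 cells, an established colon adenocarcinoma line. Both samples carried an shRNA that depletes endogenous TCF7L1 and were treated with 1 µg/ml doxycycline, which induced a FLAG-tagged protein from the pCW57.1 plasmid. In the TCF7L1 sample (n = 1) that protein was TCF7L1, and in the TCF7L1-MUT sample (n = 1) it was a form with a mutated DNA-binding domain. The tagged protein came from an inducible plasmid, so its level was not that of the endogenous gene. With 1 sample per group no value has a replicate check and no test was made, and differences between the lists describe these libraries.

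The extracellular matrix is the protein network around cells. Laminins are trimers of an alpha, a beta and a gamma chain that polymerize in basement membranes, the sheets beneath epithelia, where nidogens and perlecan link them to type IV collagen. Tenascins, SPARC and thrombospondins are matricellular proteins, which modulate how cells attach rather than bear load. TCF7L1 belongs to the TCF/LEF factors, which bind DNA through an HMG box and act on Wnt target genes, and it is known mainly as a repressor.

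The deposited lists held 3663 regions with 3762 summits for TCF7L1 and 204 regions with 224 summits for TCF7L1-MUT. A summit is the position of a region with the most reads. The files list called regions only and do not hold the total depth of either library, which was not used here. A gene was counted at its promoter when a summit lay within 2.5 kb of any of its transcript start sites, and in the wider window when a summit lay inside the gene or within 100 kb of a start site.

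TCF7L1 summits lay at the promoters of 6 of the 39 matrix genes, which were LAMA2, LAMA3, LAMA4, SPARC, TNC and VCAN. That was 15.4% of the matrix genes, beside 4.86% (975) of all protein-coding genes. Because the list was set with earlier results of these data known, that difference is not independent of them. Of 69 other matrix genes, described at the end, 2 (2.90%) had a promoter summit. In the wider window the matrix genes were near the background, with 10 of 39 (25.6%) beside 23.1% (4632) of all protein-coding genes, and the additional genes were COL12A1, COL17A1, HSPG2 and TNR. No matrix gene had a TCF7L1-MUT summit, at a promoter or in the wider window, where the shares over all protein-coding genes were 0.0948% (19) and 0.803% (161). A single gene makes up 2.56% of the list.

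The sequences around 4 of the promoter summits that hold matches to known motifs, described further below, are shown. The SPARC window, which also holds a match, is not printed. Each is 201 bases of the GRCh38 plus strand centred on the summit, read 5′ to 3′, with matches in capitals. Both strands were searched. The TCF core was read as CTTTGAA, also as CTTTGAT, further as CTTTGTA and finally as CTTTGTT. The AP-1 motif was TGACTCA with its reverse complement TGAGTCA. The forkhead motif was TATTTAC and alternatively TGTTTAC. The TNC window is chr9:115118603-115118803 and holds a TCF core. The VCAN window is chr5:83471106-83471306 and holds a TCF core followed by a forkhead match on the minus strand. The LAMA3 window is chr18:23689132-23689332 and holds a TCF core near its start. The LAMA2 window is chr6:129501476-129501676 and holds 2 AP-1 matches.
TNC: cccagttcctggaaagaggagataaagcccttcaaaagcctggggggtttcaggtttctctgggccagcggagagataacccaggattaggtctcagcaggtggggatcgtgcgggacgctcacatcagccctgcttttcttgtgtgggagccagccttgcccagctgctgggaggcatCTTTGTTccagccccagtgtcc
VCAN: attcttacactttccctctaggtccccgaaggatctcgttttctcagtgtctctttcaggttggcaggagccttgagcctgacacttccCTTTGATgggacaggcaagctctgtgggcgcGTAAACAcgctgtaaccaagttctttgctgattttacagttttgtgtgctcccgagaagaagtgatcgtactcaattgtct
LAMA3: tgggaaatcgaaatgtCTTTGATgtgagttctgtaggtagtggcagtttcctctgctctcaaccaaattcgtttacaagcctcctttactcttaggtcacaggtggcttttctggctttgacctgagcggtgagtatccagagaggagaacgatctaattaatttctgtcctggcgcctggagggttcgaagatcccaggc
LAMA2: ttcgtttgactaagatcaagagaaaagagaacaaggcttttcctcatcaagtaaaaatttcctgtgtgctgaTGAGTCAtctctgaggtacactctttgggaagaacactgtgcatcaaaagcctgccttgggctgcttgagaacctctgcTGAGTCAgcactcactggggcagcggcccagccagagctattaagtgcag

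**Figure D1:**
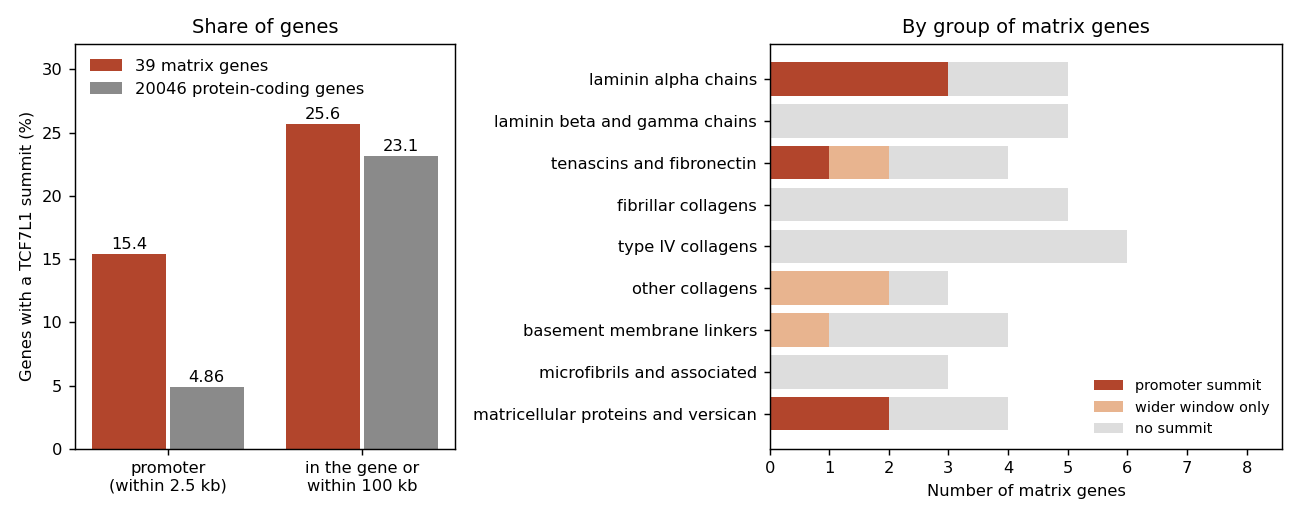
The left panel gives the percentage of genes with a TCF7L1 summit for the 39 matrix genes and for all 20046 protein-coding genes, and the right panel gives the number of matrix genes in each of 9 groups by where their summits lay. The promoter bar of the matrix genes reaches 15.4% beside 4.86%, the wider window bars stand at 25.6% and 23.1%, and the promoter genes fall in 3 of the groups.

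The promoter genes fell in 3 of the 9 groups. Among the laminin alpha chains, the subunits that bind cell-surface receptors, 3 of 5 had a promoter summit. LAMA3 and LAMA4 were lost at a q-value of 0.001 or less, and LAMA2 with the 5′ end of each gene alone. None of the 5 beta and gamma chains that complete the trimers had a summit in either window. Of the 4 tenascin and fibronectin genes, TNC had a promoter summit and TNR a distal one. SPARC, a collagen-binding glycoprotein, and VCAN, which encodes the large proteoglycan versican, were 2 of the 4 matricellular and versican genes. No collagen gene of 14 had a promoter summit, and COL12A1 and COL17A1 were the only ones with a summit in the wider window. Type IV collagens (0 of 6), fibrillar collagens (0 of 5) and microfibril genes (0 of 3) had none. With promoter summits at 4.86% of all protein-coding genes, fewer than 1 gene would be counted among 14, so a count of 0 in these groups is near the background. The counts are small, and differences between groups were not tested.

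TNC encodes tenascin-C, a hexameric glycoprotein of embryonic, healing and tumor tissue. Its summit had the highest fold enrichment among the matrix genes. The region, chr9:115118136-115119182, lay upstream of the gene with its summit 496 bp from the nearest start site. The fold enrichment, the ratio of reads at the summit to the local background after adding 1 to each, was 7.45, with a −log10 q-value of 18.3. The peak caller's values correspond to 39 reads at the summit and a background of 4.37 before that addition. It ranked 268 of 3663 TCF7L1 regions by fold enrichment, and TNC ranked 41 of the 975 genes with a promoter summit. The region was 1047 bp wide, and 21 regions were wider. The TCF core printed above lay 82 bp from the summit.

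SPARC had the second highest value, a fold enrichment of 5.96 from 29 reads (−log10 q-value 10.6). The region, chr5:151684809-151685203, peaked within an intron, 231 bp past the nearest start site but 1976 bp from the 5′ end of the gene. An AP-1 match lay 96 bp from the summit, and no TCF core was found within 250 bp. VCAN had a fold enrichment of 4.58 from 28 reads (−log10 q-value 7.12). Its region, chr5:83471007-83471428, lay upstream of the gene with the summit 412 bp from the nearest start site. Its TCF core was the closest of all to a summit, at 8 bp, and the forkhead match lay 23 bp away on the other side.

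The 3 laminin alpha chain genes differed in strength and in position. LAMA3 encodes the alpha chain of laminin-332, which anchors epithelial cells to the basement membrane. The gene has 15 annotated start sites, and which of them gives the laminin-332 chain was not examined. The LAMA3 promoter summit lay 221 bp upstream of the 5′-most start site, in chr18:23689122-23689436. It had a fold enrichment of 3.45 from 19 reads (−log10 q-value 2.46). The TCF core printed above lay 81 bp away. LAMA4, an alpha chain of vascular and muscle basement membranes, had the weakest of the 13 summits, with a fold enrichment of 3.16 from 15 reads. Its −log10 q-value of 1.32 was close to the lowest in the list, 1.31. That summit lay in a coding exon of an annotated transcript, 364 bp downstream of the nearest start site, in chr6:112253923-112254383, and held none of the motifs within 100 bp. By fold enrichment LAMA3 ranked 3490 and LAMA4 ranked 3594 of 3663 regions.

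LAMA2 encodes the alpha chain of muscle laminin. Its promoter summit, in chr6:129501262-129501760, lay 459 bp downstream of an internal start site of a transcript with no defined coding sequence. It was 618 kb from the 5′ end of the gene, 97.6% of the way along it. When starts of protein-coding transcripts alone were used, 5 of 39 matrix genes (12.8%) beside 4.35% of all protein-coding genes had a promoter summit, and LAMA2 was the gene lost. The fold enrichment was 5.45 and the −log10 q-value 7.08, from 22 reads. Its AP-1 matches lay 25 bp before and 54 bp after the summit on the plus strand.

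**Figure D2:**
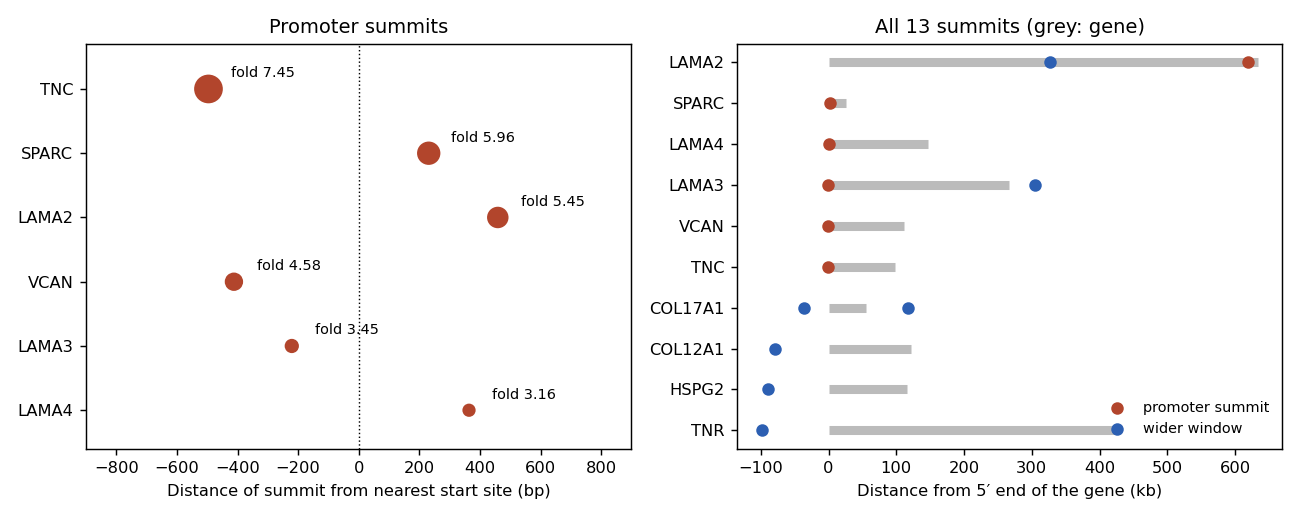
The left panel places the 6 promoter summits by distance in bp from the nearest start site, negative upstream, with point area growing with fold enrichment, and the right panel places all 13 summits by distance in kb from the 5′ end of each gene, drawn in grey. The promoter summits lie between 496 bp upstream and 459 bp downstream of a start site, and the LAMA2 promoter summit lies 618 kb into the gene.

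**Figure D3:**
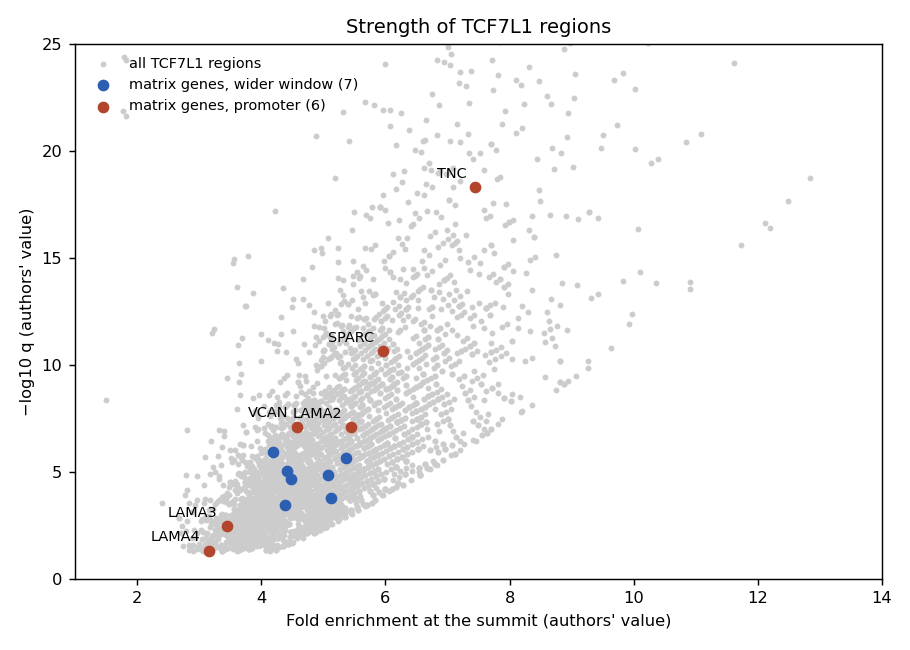
Each point is a TCF7L1 region, by fold enrichment at the summit and −log10 q-value as the authors' peak caller gave them, with regions of the matrix genes coloured and 90 other regions beyond the axes. TNC stands highest of the matrix genes at 7.45 and 18.3, and LAMA4 lies near the lower edge at 3.16 and 1.32.

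Over all 13 regions of the matrix genes the median fold enrichment was 4.58 (range 3.16 to 7.45), beside 5.02 over all 3663 regions. For the 6 promoter regions it was 5.01, beside 4.602 over all 930 promoter regions. None of the 13 overlapped a TCF7L1-MUT region, beside 3.604% of all TCF7L1 regions and 1.29% of all promoter regions. At such shares a count of 0 among 13 regions is near the background. Sequence was mostly single-copy in 12 of the 13, beside 77.5% of all regions. The exception was a second LAMA2 summit in an intron 327 kb from the 5′ end, with a fold enrichment of 5.12 from 13 reads, where 59.6% of the 31-base words occurred more than once in the genome.

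Of the 7 summits in the wider window alone, 5 lay within 2.5 kb of a start site of another protein-coding gene. COL17A1, a transmembrane collagen of hemidesmosomes, had a summit 0.426 kb from a start of SFR1 (fold enrichment 4.38) and another 0.784 kb from SLK (4.41). The summit of COL12A1, a fibril-associated collagen, was 0.257 kb from TMEM30A (5.36). A second LAMA3 summit, 38.4 kb past the end of the gene, was 1.87 kb from TTC39C (4.48). The HSPG2 summit, 88.7 kb upstream of the perlecan gene, was 0.501 kb from an unnamed protein-coding gene and 36 bp from the non-coding gene LINC01635 (4.196). The TNR summit (5.08) lay 98.3 kb upstream of tenascin-R, a brain matrix protein, and TNR was the nearest coding gene. Without summits at promoters of other genes, 7 of 39 matrix genes (17.9%) had a summit in the wider window, beside 18.3% of all protein-coding genes.

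The matrix genes are long and have many start sites. Their median length was 98.9 kb, beside 27.4 kb over all protein-coding genes, with a median of 11 start sites beside 5. Among genes with at least 10 start sites, 5 of 23 matrix genes (21.7%) had a promoter summit, beside 7.57% of all such genes. Among genes of at least 50 kb, 9 of 29 matrix genes (31.03%) had a summit in the wider window, beside 31.6%. Summits numbered 1.08 per Mb of the matrix genes' windows and 1.45 per Mb of the windows of all protein-coding genes. The part of gene length and start site number in the shares was not tested beyond these values.

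The remaining 29 matrix genes had no TCF7L1 summit in either window. The nearest summit was 100 to 500 kb away for 20 of them, 500 to 1000 kb for 5 and farther for 4. LAMC1 was just outside the limit at 100.3 kb, and TNR was just inside it at 98.3 kb. Among the other laminin chains, the nearest summit was 149 kb from LAMA1, 175 kb from LAMB3, 228 kb from LAMC3, 872 kb from LAMA5, 881 kb from LAMB2 and 1268 kb from LAMB1. FN1, the gene of fibronectin, was 183 kb from a summit, and TNXB, which encodes tenascin-X, was 846 kb away. The fibrillar collagens, which form the load-bearing fibres of connective tissue, lay at 171 kb (COL1A2), 211 kb (COL1A1), 216 kb (COL5A2), 365 kb (COL5A1) and 433 kb (COL3A1). The type IV collagens, the network formers of basement membranes, ranged more widely, from 157 kb (COL4A3) and 302 kb (COL4A4) to 421 kb (COL4A6) and 697 kb (COL4A5). COL4A1 and COL4A2, which share a promoter region, were the farthest of all 39 genes, at 3244 and 3386 kb. COL7A1, the collagen of anchoring fibrils, was 325 kb from a summit. Of the nidogen and agrin genes, NID1 lay at 202 kb, AGRN at 386 kb and NID2 at 1619 kb. The microfibril genes FBN1 and FBN2 and the associated FBLN1 lay at 318, 519 and 495 kb, and the thrombospondin genes THBS2 and THBS1 at 469 and 498 kb. The median over the 39 genes was 228 kb, beside 343 kb over all protein-coding genes, both from the nearest of all start sites. With the 5′ end of each gene alone the median of the 39 genes was 310 kb. The value over all protein-coding genes is not given here for that setting. The nearest TCF7L1-MUT summit to any matrix gene lay 386 kb from AGRN, and chromosome 15, which holds FBN1 and THBS1, had no TCF7L1-MUT region.

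**Figure D4:**
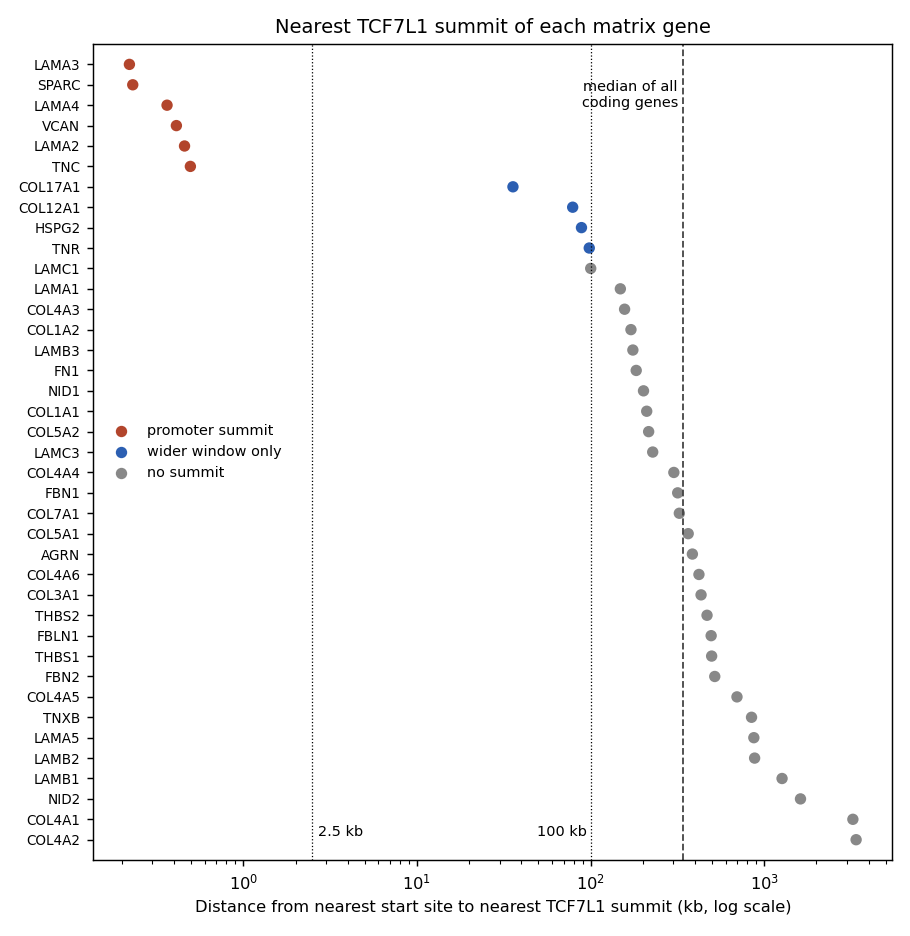
Each point is a matrix gene, by the distance in kb on a log scale from its nearest start site to the nearest TCF7L1 summit, with dotted lines at 2.5 and 100 kb and a dashed line at the median of all protein-coding genes, 343 kb. The 6 promoter genes form a separate set under 0.5 kb, and the 4 genes with a summit in the wider window alone lie between 35.8 and 98.3 kb.

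The motifs were found in some regions and not in others. A TCF core lay within 100 bp of the summit in 3 of the 13 regions (23.1%), those at TNC, VCAN and LAMA3, beside 26.7% of all 3631 TCF7L1 regions on the reference sequences. It was found in 16.3% of windows centred 1 kb to either side of all summits and in 11.98% of 192 TCF7L1-MUT regions. An AP-1 match was found in 3 of the 13 regions (23.1%), at LAMA2, SPARC and HSPG2, beside 7.30% of all TCF7L1 regions. Of the 6 promoter regions of the matrix genes, 3 (50%) held a TCF core, beside 23.5% of all promoter regions. An AP-1 match was held by 2 of the 6 (33.3%), beside 4.19% of all promoter regions. In windows centred 1 kb to either side, AP-1 was found around the matrix gene summits in 3 of 26 (11.5%) and around all summits in 2.74%. The TCF core was found in 2 of the same 26 windows (7.69%). The forkhead match at VCAN was the only one, beside 12.6% of all regions. No region held both a TCF core and an AP-1 match. A match describes the letters in the window and does not show that a factor was bound.

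**Figure D5:**
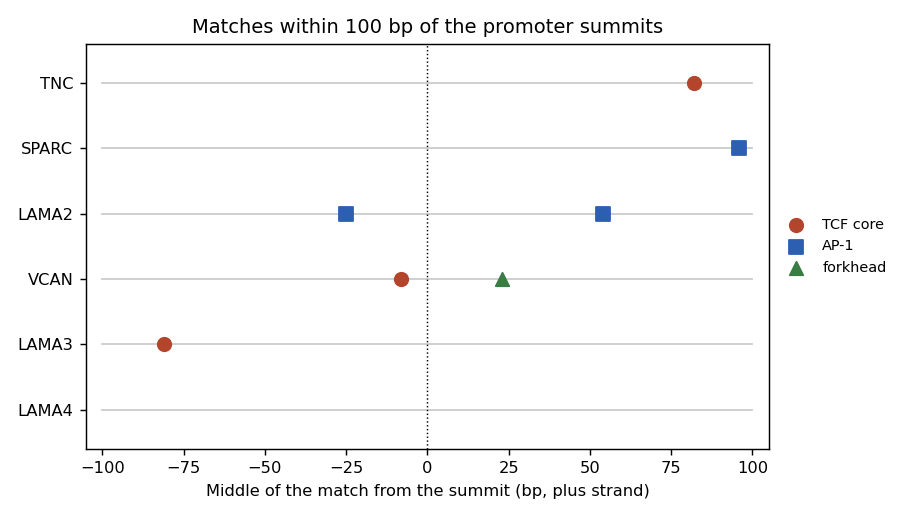
The 6 promoter summits of the matrix genes are shown with the positions, in bp from the summit on the plus strand, of TCF core, AP-1 and forkhead matches within 100 bp. TCF cores lie at TNC, VCAN and LAMA3, AP-1 matches at SPARC and LAMA2, and no match lies at LAMA4.

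Genes that act on or bind the matrix were counted in the same way. Of 69 other matrix genes, 2 (2.90%) had a promoter summit. They were COL19A1, a fibril-associated collagen (fold enrichment 5.41), and SMOC1, a SPARC-related protein (5.57). Of 48 enzymes that modify the matrix and their inhibitors, 5 (10.4%) had a promoter summit. These were the metalloproteinases ADAMTS3 (4.53) and ADAMTS6 (4.89), the membrane-bound metalloproteinase MMP16 (4.65), the procollagen-processing protease TLL1 (3.93) and the heparan sulfate sulfatase SULF1 (5.07). Of 29 matrix receptors, ITGB8, an integrin beta subunit, was the only one (3.45%), with a fold enrichment of 6.19. The promoter share over all protein-coding genes was 4.86%. In the wider window these lists had 20 of 69 (29.0%), 14 of 48 (29.2%) and 8 of 29 (27.6%), beside 23.1% of all protein-coding genes. Their median gene lengths were 71.9, 42.0 and 79.1 kb, beside 27.4 kb, and the part of length in these shares was not tested.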

How the data were processed

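ChIP-seq regions of 2 samples, TCF7L1 and TCF7L1-MUT, were analysed, and the labelled genotype set the groups. Reads were trimmed by the authors with skewer and aligned to GRCh38 with BWA (v0.7.12). Peaks were called by sample using MACS2 (v2.1.0). The use of an input library, the q-value threshold and the handling of duplicate reads are not given in the sources used here, and these can change which regions are listed.

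The deposited fold enrichment is a ratio of reads at the summit to local background, each increased by 1. The deposited −log10 p-values and −log10 q-values are those of the authors' peak caller. The deposited score was not used, and the deposited summit lists repeat the same 3762 and 224 summits. Reads and background at a summit were solved from the fold enrichment and p-value under a Poisson model, within 0.001 in −log10 p.

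Start sites came from all GENCODE release 44 transcripts. Regions overlapping by 1 bp were called shared. Motifs were searched within 100 bp of the summit, and 32 TCF7L1 and 12 TCF7L1-MUT regions on patch or alternate sequences were left out of that search. A region was called single-copy when under 50% of its 31-base words recurred in the genome. Placement and read solving were checked on simulated data. Every matrix gene with a summit in either window was named, with full values for promoter summits, as were genes of the other lists with a promoter summit. The members and lists were chosen with earlier results of these data known. Alternatives covered strength, significance, distance, start sites, gene length and motif window. Python, numpy, pandas and scipy were used, and no p-value was computed.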

Additional observations from a re-analysis of the deposited data

How the results depend on the processing

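Of 57 alternative values for 10 results, 38 stayed within the margin of the reported value and 19 moved outside it. The margin was 1.5 times for counts and the 95% interval for shares and medians. Most values that moved were shares over all protein-coding genes or all regions, whose intervals are narrow. Matrix genes were compared as counts, so 5 of 23 was held within the margin of 6 of 39. The margins are wide for the matrix genes, at 8.18% to 50.3% for the TCF core share and 157 to 433 kb for the median distance. That distance was 365 kb with a fold enrichment of at least 5. That setting left promoter summits at 3 matrix genes (LAMA2, SPARC and TNC) beside 1.92% of all protein-coding genes, and summits in the wider window at 5 beside 11.6%. At a q-value of 0.001 or less, 4 matrix genes (10.3%) beside 3.98% had a promoter summit, LAMA3 and LAMA4 being lost, and 9 (23.1%) beside 20.0% had one in the wider window. With the 5′ end of each gene alone these were 5 (12.8%) beside 3.41% and 10 (25.6%) beside 21.4%. Promoter distances of 1 kb and 5 kb kept the same 6 matrix genes, beside 3.87% and 5.64%. A window of 50 kb gave 7 (17.9%) beside 15.5%. The wider window share of the matrix genes, above that of all protein-coding genes as reported, was below it among genes of at least 50 kb (31.03% and 31.6%) and without summits at promoters of other genes (17.9% and 18.3%). The latter was chosen after seeing the data, as were starts of protein-coding transcripts (5 beside 4.35%) and genes with at least 10 start sites (5 of 23 beside 7.57%). A TCF core lay within 50 bp in 7.69% of the matrix gene regions beside 15.3% of all regions, and within 250 bp in 46.2% beside 47.9%. In single-copy regions the order turned, with 25% (3 of 12) beside 21.0%. When any base of a region counted, LAMC1 joined the wider window, giving 11 genes. No paired analysis was possible because there was a single sample per group. LAMA3 and LAMA4 rest on 19 and 15 reads at the summit.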
